A study of Rattus norvegicus with 8 samples.

Results

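Stable half-methylated tiles are 1 kb stretches of the rat genome in which roughly as many CpG calls were methylated as unmethylated, in every library and in both brain regions. They were chosen by their own levels. A tile had to hold at least 5 CpG dyads, its level had to lie from 35% to 65% in each of 8 libraries, and its highest and lowest library could differ by at most 20 percentage points. A dyad is the CpG of both strands, with the calls of the listed strands added, and each dyad had 10 or more calls in every library. The level is methylated calls over all calls. Of 55840 tiles on chromosomes 1 to 20 with enough dyads, 1653 (2.96%) passed, and they held 12901 dyads.

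The 8 libraries were made by reduced representation bisulfite sequencing (RRBS), with 4 hippocampus and 4 hypothalamus libraries. The donors were male Sprague Dawley rats, 2 months old at the start, whose feed contained docosahexaenoic acid (DHA, a long-chain omega-3 lipid) during 6 weeks. The treatment field of the labels also mentions fructose in the study as a whole, while the sample labels name DHA alone. The chow-fed group was not analysed here, so brain region was the only contrast, and each library mixes all cell types of a dissected region. The labels do not name animals, so p-values measure the spread between these libraries.

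Hypothalamus 3 and 4 were the shallowest libraries. A stable half-methylated tile had a median of 182 calls in hypothalamus 3, 268 in hypothalamus 4 and 471 to 624 in the other libraries. The matching median half-widths of the 95% Wilson interval of a tile level were 7.12, 5.88 and 3.88 to 4.47 points. They cover counting error only and take every call as independent. Neighbouring dyads are read on the same molecules, so these half-widths are too narrow. At 174 dyads whose levels fell into classes as a genotype would, the libraries numbered 1 of both regions shared the class at 99.4% of dyads and those numbered 4 at 100%. The other pairs shared it at 22.99% to 36.2%, so the regional comparisons include pairs of libraries that look like the same animal.

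CpG methylation is copied to the new strand after replication, so a site in one cell is usually either methylated or not on a given chromosome copy. A level near the middle can therefore come from a mixture: of the maternal and paternal copies, of cell types, of cells of one type, or of neighbouring sites that differ. Genomic imprinting is the first case. At an imprinted control region one parental copy is methylated and the other is not, so every CpG of the region is read at about the same middle level in most tissues, and the genes nearby are expressed from one copy.

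The sequences below come from tiles on which the results turn. In each, capitals mark the CpGs that had 10 or more calls in all libraries, and n marks a base that the listed cytosines do not give. The first 3 show even middle levels, at Gnas and in an interval that holds several imprinted genes. They were read on the forward strand from the base and dinucleotide columns of the deposited files, at chr3:178426513-178426611, chr3:178438791-178438871 and chr6:142820896-142820949 (build rn5).

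Gnas, first tile: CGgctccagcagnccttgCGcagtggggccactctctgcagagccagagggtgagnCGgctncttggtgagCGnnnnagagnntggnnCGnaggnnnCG

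Gnas, second tile: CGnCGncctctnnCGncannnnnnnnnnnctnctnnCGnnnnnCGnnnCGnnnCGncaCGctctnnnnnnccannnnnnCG

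Interval after Dlk1: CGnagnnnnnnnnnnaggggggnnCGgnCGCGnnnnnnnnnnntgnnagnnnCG

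The next show middle tile levels of other make-up. Lep and Tmem160 are the stretches of the RefSeq promoter windows (assembly GRCr8, forward strand) that hold the measured CpGs, matched letter by letter to the files at chr4:56084829-56085014 and chr1:79664759-79664920 (rn5). The last was read from the files at chr11:87187246-87187324.

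Lep promoter: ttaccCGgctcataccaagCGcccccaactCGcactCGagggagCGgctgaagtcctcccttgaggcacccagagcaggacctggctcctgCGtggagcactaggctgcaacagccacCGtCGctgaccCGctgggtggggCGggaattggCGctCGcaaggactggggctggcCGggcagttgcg

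Tmem160 promoter: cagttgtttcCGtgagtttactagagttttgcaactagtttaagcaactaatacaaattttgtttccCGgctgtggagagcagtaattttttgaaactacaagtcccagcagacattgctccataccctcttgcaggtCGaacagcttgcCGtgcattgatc

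Chromosome 11 tile: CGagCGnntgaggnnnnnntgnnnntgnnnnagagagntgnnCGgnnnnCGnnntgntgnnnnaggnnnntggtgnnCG

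Middle levels were uncommon among all tiles. Most tiles were nearly unmethylated or heavily methylated, with 13109 of 55840 below 5% and a median level of 71.97%. Of the 6442 tiles with a mean level from 35% to 65%, 1653 (25.66%) were stable by the rule. The other 4789 are called variable tiles here. Most of them had a library outside the limits on the level, and many of these exceeded the limit on the range as well. In all 8 libraries 2013 tiles lay from 35% to 65%, and the range alone set aside 360 of these. Mean levels of variable tiles had quartiles of 43.42% and 60.95%, nearer the limits than 46.59% and 54.76% in stable tiles. The variable tiles had a median range over libraries of 22.58 points, against 13.67 points in the stable tiles. These levels and ranges follow from the rule and are descriptions. Just inside the limit on the range lay chr17:89672001, chr14:91789001 and chr6:121636001, with 20, 19.995 and 19.986 points. Just outside lay chr10:95225001, chr14:61400001 and chr10:47292001, with 20.004, 20.011 and 20.014 points.

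**Figure D1:**
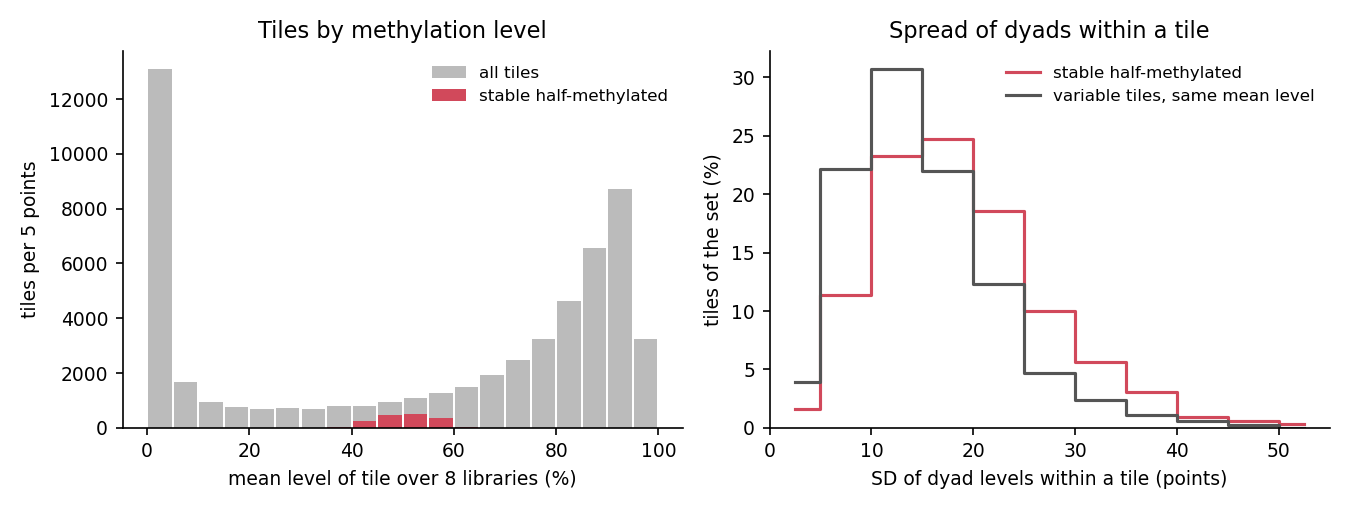
Left, number of tiles by mean methylation level over the 8 libraries (%, bins of 5 points), for all tiles (grey) and stable half-methylated tiles (red). Right, share of tiles (%) by the SD of dyad levels within the tile (points), where the stable tiles (median 17.56) lie to the right of the variable tiles (median 13.75).

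The stable tiles held a median of 7 dyads (5 to 41) and had a median level of 50.8% (36.71% to 62.77%). Their median depth was 66.15 calls per dyad and library, against 63.16 over all tiles, and 3 tiles exceeded 5 times the median depth. They lay on all 20 chromosomes, where they made up between 2.365% of tiles (chromosome 15) and 3.75% (chromosome 12). On chromosome X, which the rule leaves out and of which males carry a single copy, 14 of 758 tiles (1.847%) met the same limits. Of the 37 chromosome X tiles of middle mean level, 14 (37.84%) were stable.

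The rule set limits on the summed level of a tile and on its range, not on single dyads. Within a stable tile the dyads differed widely. The SD of dyad levels had a median of 17.56 points in the stable tiles, 13.75 in the variable tiles and 5.835 over all tiles. Computed in each library, the median SD ranged from 18.07 to 19.57 points in the stable tiles and from 14.37 to 16.05 in the variable tiles. The difference was positive in 8 of 8 libraries, with a mean of 3.64 points ± 0.218 (SD). The limits on level and range, which split the stable from the variable tiles, act on sums over these same dyads. This difference is therefore a description and no test of it is given.

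The make-up of the tiles is described in the same way, from the mean level of each dyad over the 8 libraries. Every dyad lay from 25% to 75% in 550 stable tiles (33.27%), against 40.22% of the variable tiles. Dyads below 20% and above 80% stood side by side in 322 stable tiles (19.48%), against 7.392% of the variable tiles. An SD below 5 points was found in 26 stable tiles (1.573%) and in 3.926% of the variable tiles. By single dyads, 54.84% of those in stable tiles lay from 35% to 65%, against 56.68% of those in variable tiles. In the 15 stable tiles at Gnas or in the intervals of other genes of the imprinted list, described further on, this SD ranged from 0.883 to 23.27 points. Whether a stable tile is imprinted was not tested, since no parental copies were told apart, and the tiles are named here by their rule.

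In 270 of the 322 mixed stable tiles (83.85%), the low and the high dyads were separated by a single change along the tile, with a median of 198 bases (quartiles 90 and 348) between the last dyad of one kind and the first of the other. In the variable tiles it was 295 of 354 (83.33%), with a median of 164 bases. A tile with 1 low and 1 high dyad can only have a single change. Of the 96 stable tiles with 2 or more dyads of each kind, 67 (69.79%) had a single change, against 79 of 98 variable tiles (80.61%). Tmem160, a gene for a transmembrane protein, shows the pattern at chr1:79664001-79665000. The 6 dyads at bases 79 to 169 of its tile had mean levels of 90.75% to 98.04%, 3 dyads at bases 610 to 706 had 40.46% to 71.32%, and the 5 dyads from base 769 onwards had 0.873% to 3.14%. The tile as a whole had 44.01%, 40.83%, 44.15% and 44.58% (hippocampus 1 to 4) and 46.39%, 40.76%, 44.88% and 54.02% (hypothalamus 1 to 4). Its middle level is an average over a fall from methylated to unmethylated DNA ahead of the matched gene start, and the printed promoter stretch holds 4 of the low dyads.

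The tiles whose level varied least between libraries were mixed as well. The smallest ranges were 1.526 points at chr8:37242001-37243000, 2.305 points at chr11:87187001-87188000 and 2.851 points at chr2:172935001-172936000, and the SD of their dyads was 31.89, 51.57 and 48.68 points. In the chromosome 11 tile, 5 dyads within 79 bases had mean levels of 0.738%, 91.93%, 0.806%, 96.08% and 96.58%, in this order along the printed sequence. There the low and high dyads alternate and no single boundary exists. Whether low dyads in this and other mixed tiles are unmethylated CpGs or bases that differ from build rn5 in these rats was not tested. The tile on chromosome 8 was read by 5539 to 19352 calls per library, far above the median tile. Of its dyads 6 had 890 to 3224 calls per library and the other 5 had 21 to 128, and with every dyad weighted alike the level was 68.83%, above the upper limit of the rule.

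**Figure D2:**
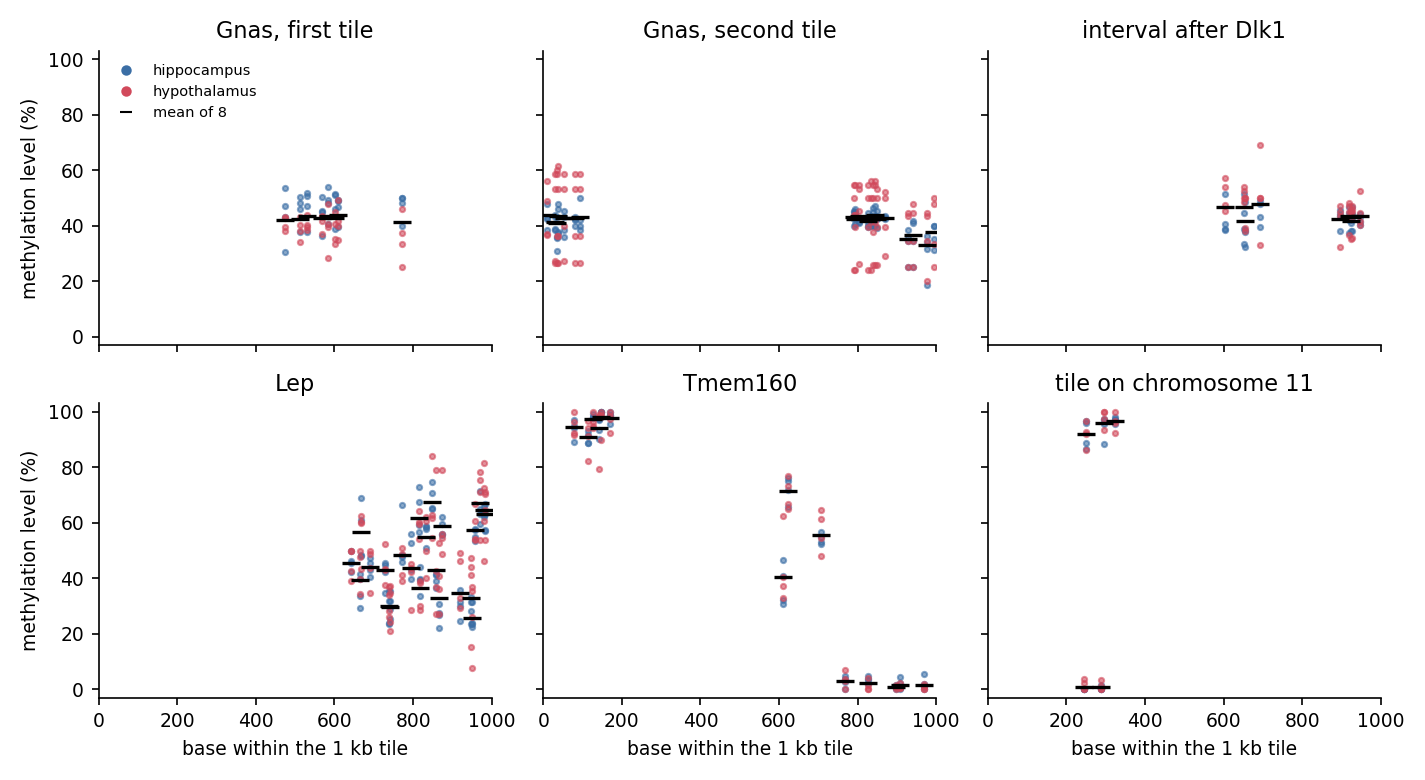
Methylation level (%) of each dyad against its base within the 1 kb tile, 1 point per library (blue hippocampus, red hypothalamus) with the mean of 8 as a bar, in 6 stable half-methylated tiles. By their means over the 8 libraries, the dyads of the Gnas tiles and of the tile in the interval after Dlk1 share a middle level and those of Lep scatter, while single libraries spread more widely. Tmem160 runs from high through 3 middle dyads to low, and the chromosome 11 dyads are either near 0 or near 100.

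Gnas, an imprinted gene for the stimulatory G protein alpha subunit with several alternative promoters, held the most even of the stable tiles. Of its RefSeq promoter windows, those starting transcription at 178426255 and 178439178 on chromosome 3 matched the files within stable tiles. In the first tile (chr3:178426001-178427000, 8 dyads) the levels were 47.9%, 37.55%, 49.86% and 47.9% (hippocampus 1 to 4) and 38.2%, 43.79%, 37.5% and 40.52% (hypothalamus 1 to 4), and the groups overlapped. Its 8 dyads had mean levels between 41.27% and 43.82%, an SD of 0.883 points, the lowest of all 1653 stable tiles. Neighbouring dyads are read on the same molecules, so this SD can be smaller than counting noise of independent calls would allow. In hypothalamus 3 the tile level rested on 84 of 224 calls, with a 95% Wilson interval of 31.42% to 44%. This interval takes the calls as independent and is too narrow for the same reason.

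The second Gnas tile (chr3:178438001-178439000) had 20 dyads, a mean level of 41.54% and a dyad SD of 3.09 points. Its levels were 41.63%, 38.22%, 41.08% and 41.93% in hippocampus and 39.54%, 36.68%, 42.2% and 51% in hypothalamus. The dyads formed 3 groups along the tile, and in a single library these groups did not always share a level. In hypothalamus 2 the 7 dyads at bases 9 to 93 had 49% to 61.5%, while the 9 at bases 791 to 870, those printed above, had 24.2% to 29%. Over all libraries these 9 dyads had mean levels of 41.73% to 43.93%. The adjoining tile (chr3:178439001-178440000, 11 dyads) had a mean of 49.72% and a wider dyad SD of 11.92 points, since its first dyad stood at 79.83% and the rest between 39.37% and 59.63%. Between the regions, 0 of the 39 dyads of the 3 tiles were called by the moderated quasi-binomial model described further on, where 9.84% of all tested dyads were called. None of the 39 had an unadjusted p under 0.05, and limma on logit levels also called 0. Since the rule bounds the difference of these tiles, nothing is read from these counts.

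The imprinted genes were followed as a list of 72 textbook genes. Because the files name no genes, a gene was placed only where promoter windows on both sides of it matched the sequence letters of the files. The order of genes between matches was taken from RefSeq. A match of its own promoter did not place a gene, and Gnas was among the genes not placed. Between matched neighbours 31 list genes were placed, and 15 of them lay in an interval with a stable tile. Of the 207 tiles in the intervals of all 31 genes, 12 (5.8%) were stable, against 2.95% of tiles elsewhere, and an interval can hold several genes. Variable tiles were 27 of the 207 (13.04%), against 8.56% elsewhere. Of the 39 tiles of middle mean level there, 30.77% were stable, near the 25.66% over all tiles. The Gnas tiles, tied to the gene by its own promoter, come on top of these 12.

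Dlk1, a paternally expressed growth regulator, and Meg3, a maternally expressed long non-coding RNA, belong to one imprinted gene cluster. The interval from the matched Dlk1 start to the next matched start is 211205 bases long and holds Meg3, Rtl1 and several miRNA genes by RefSeq order, and the place of the tiles among them is not given by the matches. It held 3 stable tiles, the first of which began 77852 bases past that start. Tile chr6:142820001-142821000 had 44.52%, 41.74%, 38.26% and 44.95% in hippocampus and 46.01%, 44.41%, 46.74% and 39.14% in hypothalamus. By their means over the 8 libraries, its 9 dyads lay between 41.79% and 47.75% (SD 2.26 points), a spread between those of the first 2 Gnas tiles. Single libraries were less even. In hypothalamus 4 the 4 dyads at bases 604 to 692 had 50% to 69.23%, and the 5 at bases 896 to 948 had 32.35% to 40.35%. The next tile was stable too, at 45.41%. The third, chr6:142898001-142899000, had a similar mean of 44.84% but dyads from 15.67% to 82.28%, so it was not even.

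The Commd1 interval on chromosome 14 held 8 tiles, 1 of them stable. Its stable tile, chr14:107827001-107828000, had 12 dyads between 33.97% and 49.33% (SD 5.24 points) and a mean of 39.77%. Its mean was 38.62% ± 3.26 over the hippocampus libraries and 40.91% ± 1.99 over those of hypothalamus (SD, n = 4). These levels overlapped between the regions.

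The remaining stable tiles of the list lay in the intervals of other placed genes. Their place relative to these genes is not given by the matches. In the interval of H19, a maternally expressed RNA, tile chr1:222635001-222636000 had a mean of 44.29% and dyads from 24.89% to 63.62%, with as few as 95 calls in a library. The intervals of Igf2 and Ins2, Kcnq1 and Cdkn1c, Mcts2 and Hm13, Plagl1 and Inpp5f held the remaining tiles, with dyad SDs of 9.72 to 23.06 points. Dyads with a called regional difference were 2 of 143 tested in all 15 tiles, beside 9.84% of all tested dyads and 3.97% of those in stable tiles, 1 each in the Plagl1 and Kcnq1 intervals.

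Promoter tiles were measured for 24 genes of the list, and not for others such as Peg3, Mest, Snrpn and Nnat. Of the 24 measured genes, Gnas alone had stable promoter tiles, and 21 had only promoter tiles with means under 20%. These shares do not stand for the whole list. The tile at the start of Peg10, a retrotransposon-derived imprinted gene, came closest outside the rule, with 19 dyads, a mean of 37.66% and a lowest library of 32.39%. The Plagl1 promoter tile had a mean of 28.71% and 7.25% in hypothalamus 3. Those of Igf2r, Ndn, Mkrn3, Inpp5f, Phlda2, Herc3 and Zdbf2 had means of 6.16%, 13.78%, 12.24%, 0.87%, 1.5%, 0.558% and 2.36%.

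**Figure D3:**
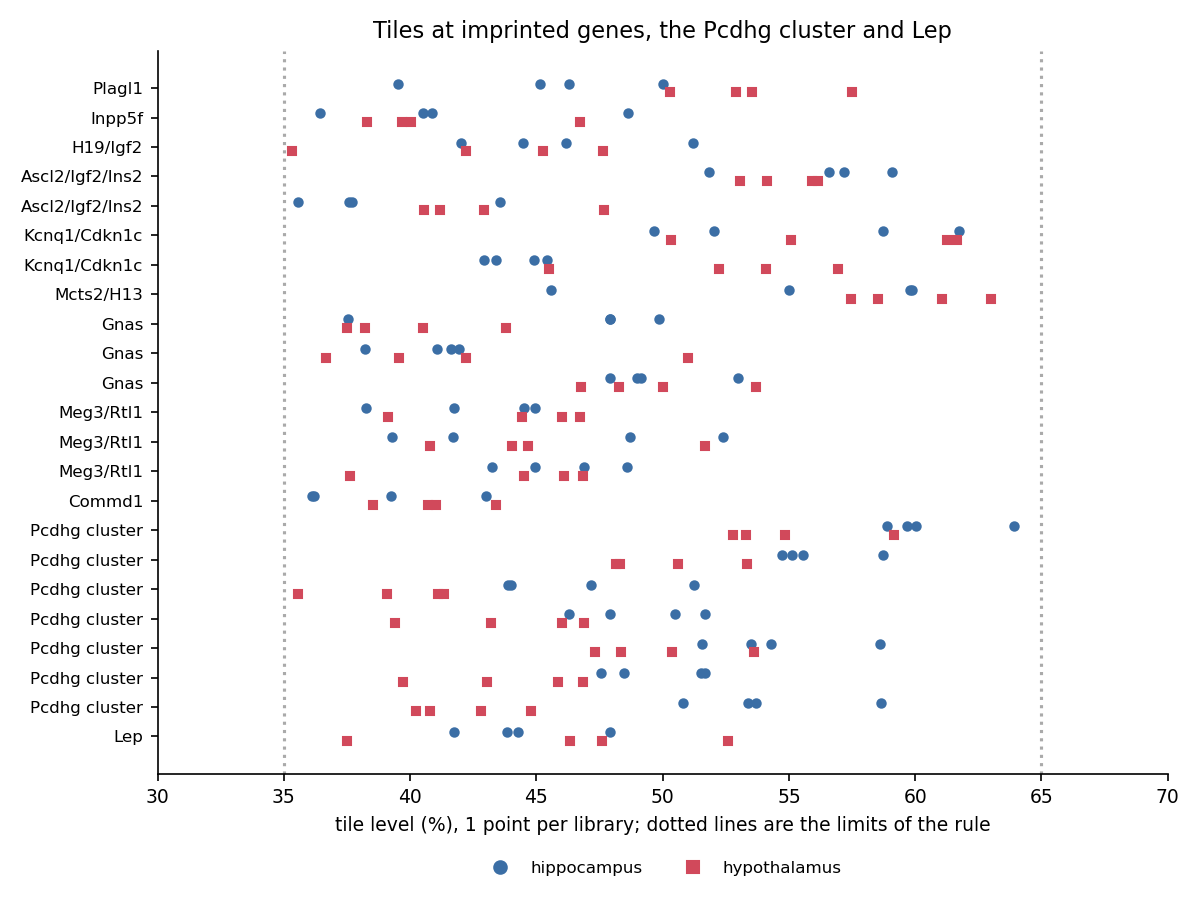
Level (%) of stable half-methylated tiles at Gnas, in the intervals of other imprinted genes, in the protocadherin gamma cluster and at Lep, 1 point per library (blue circles hippocampus, red squares hypothalamus), with the limits of the rule as dotted lines. Points of the 2 regions overlap in most rows, and hippocampus lies higher in all 7 rows of the Pcdhg cluster.

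The densest group of stable tiles lay in the protocadherin gamma cluster on chromosome 18. These genes encode cell-surface adhesion proteins, and each neuron uses a small choice of their alternative promoters. Of all 100 kb windows only the one starting at 30500001 held more than 4 stable tiles, with 6 of its 19 tiles, and 7 stable tiles lay between positions 30564001 and 30601000. The tile at the matched start of Pcdhga8, chr18:30569001-30570000, had 43.99%, 47.15%, 51.22% and 43.89% in hippocampus and 41.33%, 39.07%, 35.54% and 41.12% in hypothalamus, without overlap, as was the case for 15.9% of all tiles. All 7 stable tiles had the higher mean in hippocampus, with differences (hypothalamus minus hippocampus) of -11.98 to -4.57 points, and in 4 of them the regions did not overlap. These differences are bounded by the rule and were not tested as tiles. Of their 140 tested dyads 5 were called, all higher in hippocampus, where 9.84% of all tested dyads were called and 1.24% higher in hippocampus. A further 5 tiles of the cluster were variable and were also higher in hippocampus, with differences of -8.93 to -2.45 points, while the tile at the start of Pcdhgc3, at the far end, had a mean of 1.46%.

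Promoters were otherwise scarce. A stable tile overlapped a matched promoter window in 54 cases (3.27%), against 10.32% of all tiles and 2.13% of variable tiles. Lep, the gene of the hormone leptin, had 23 dyads in its stable tile at chr4:56084001-56085000. Its levels were 44.26%, 41.72%, 43.84% and 47.93% in hippocampus and 46.31%, 47.61%, 37.5% and 52.58% in hypothalamus, and the regions overlapped. The means of the 23 dyads over the 8 libraries ranged from 25.9% to 67.37%, and the 12 of them in the printed promoter stretch had a median of 56.07%. In single libraries the lowest dyad stood at 7.692% (hypothalamus 3) and the highest at 84.21% (hypothalamus 4). The last CpG in capitals there lies in the next tile. By the quasi-binomial model 0 of the 23 were called between the regions, 2 had an unadjusted p under 0.05, and limma on logit levels called 0, beside the 9.84% of all tested dyads. Here too the rule bounds the difference, and nothing is read from the counts. Similar scattered levels were found at the promoters of Sox30, a transcription factor of the testis (8 dyads, 26.02% to 60.05%), and Slc13a2, a dicarboxylate transporter (12 dyads, 25.34% to 84.19%).

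Of the 54 promoter tiles, 12 held dyads both below 20% and above 80%, among them those of Plgrkt, Cercam, Plekhd1 and Def6 besides Tmem160. Plgrkt, a plasminogen receptor gene, ran from 0.431% to 80.83%. With every dyad weighted alike, the Plgrkt tile (34.28%) and the Cercam tile (34.34%) fell below the lower limit of the rule. In 16 promoter tiles every dyad lay from 25% to 75%. The tile of Gdf15, a secreted stress hormone, was not among these, with 9 dyads between 33.92% and 77.61%. It had 42.86%, 44.88%, 44.22% and 42.86% in hippocampus and 51.26%, 56.92%, 52.26% and 55.74% in hypothalamus, without overlap. The regions did not overlap in 15.9% of all tiles and 13.19% of stable tiles. Other promoter tiles did not overlap either, among them that of Plekhd1, which was higher in hippocampus.

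The hexamer TGCCGC, bound when methylated by ZFP57, a zinc-finger protein that maintains imprints, was searched on both strands. It occurred in 8 of 58 promoter windows at stable tiles (13.79%), in 21.93% of all 8519 matched windows and in 11.69% of all 33469 RefSeq windows. The median number of CpGs per window was 9.5, 22 and 7. The windows of Gnas, Lep, Tmem160, Sox30 and Slc13a2 held none, which says only that these letters are not in these windows.

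Stable tiles rarely adjoined each other. They formed 26 runs of 2 tiles and none of 3 or more. Among 549 stable tiles with a measured neighbour (3 or more dyads), the neighbours had a median level of 55.51%, and 30.97% of neighbours lay from 35% to 65%, against 26.51% of neighbours of variable tiles and 10.27% of neighbours of all tiles. The run at Gnas and that in the interval after Dlk1 were among the 26, as were 3 runs in the protocadherin cluster.

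The tiles with most dyads were not tied to imprinted genes. They were chr12:15403001-15404000 with 41 dyads and a mean of 59.55%, chr10:85232001-85233000 with 40 and 41.23%, chr14:84928001-84929000 with 34 and 41.44%, chr18:30565001-30566000 with 31 and 53.06%, and chr11:71396001-71397000 with 30 and 55.23%. Their dyads spread by SDs of 13.72 to 24.99 points. By RefSeq order the first lay near zinc-finger genes such as Zfp853 and the fourth among the first protocadherin gamma genes.

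Regional differences within stable tiles were small by construction. The median difference, hypothalamus minus hippocampus, was 1.322 points (-14.82 to 15.79). Of the stable tiles 60.92% were higher in hypothalamus, against 48.66% of all tiles and 75.09% of variable tiles. The regions did not overlap in 218 tiles (13.19%), against 15.9% of all tiles. Of these 218 tiles, 155 were higher in hypothalamus and 63 in hippocampus. The split by direction was not counted over all tiles, so nothing is read from it.

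Single dyads were tested across the whole table with a quasi-binomial model with limma's moderated dispersion, and a call needed 10 points or more between the regional means, with p adjusted over all tested dyads by Benjamini-Hochberg to less than 0.05. In stable tiles 497 of 12531 tested dyads (3.97%) were called, beside 9.84% of all tested dyads. Since the rule limits the difference of a tile, nothing is read from the lower share. Of the 497, 346 were higher in hypothalamus and 151 in hippocampus, where over all dyads 8.6% and 1.24% were called in these directions. They lay in 313 tiles, and 9 tiles held dyads called in both directions. The other 1340 stable tiles held no called dyad. With a dispersion estimated for each dyad alone 0 were called (1296 at an unadjusted p under 0.05, beside 70120 of all 433557 tested dyads). Without hypothalamus 1 the count of calls was 292. It was 766 with the replicate number as a block, 598 with a block only for the libraries numbered 1 and 4, and 213 with limma on logit levels. Shares over all tested dyads are not given for these settings, so nothing is read from the counts.

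Among the 5 called dyads of largest difference, chr4:219123027 had the smallest SE and adjusted p, on 15 to 75 calls per library. It had 59.52%, 60%, 66.18% and 65.38% in hippocampus and 93.94%, 97.33%, 100% and 93.33% in hypothalamus. It rose by 33.38 points (SE 2.34; limma-moderated quasi-binomial adjusted p = 1.59e-05) while its tile stayed within the limits. The largest difference was at chr15:2780497, with 64.44%, 56.6%, 62.5% and 57.14% in hippocampus and 42.86%, 6.25%, 0% and 34.04% in hypothalamus. It fell by 39.39 points (SE 10.6; limma-moderated adjusted p = 0.00103). The hypothalamus libraries disagreed among themselves there, and 14 to 84 calls supported each level. At chr14:37699510 the level fell from 79.85% ± 8.24 to 46.92% ± 9.86, at chr3:66001553 it rose from 28.4% ± 6.13 to 60.35% ± 10.3, and at chr3:17290123 it fell from 68.47% ± 4.81 to 36.56% ± 7.02 (SD, n = 4 each).

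Methylation outside CpGs was not used by the rule. In brain it is found mostly at cytosines followed by A and is written by DNMT3A, chiefly in neurons. CHH cytosines followed by A (H is A, C or T) had levels in the stable tiles of 2.27%, 1.85%, 4.7% and 5% (hippocampus 1 to 4) and 3.33%, 2.01%, 2.51% and 3.43% (hypothalamus 1 to 4). In the same order, the cytosines followed by C had 0.359%, 0.324%, 1.76%, 1.85%, 1%, 0.304%, 0.415% and 1.01%. Libraries high at one were high at the other, and the part of unconverted cytosine in these levels was not tested.

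The regions did not differ detectably at these cytosines. The 4 hippocampus libraries averaged 3.46% ± 1.62 (SD) and the 4 hypothalamus libraries 2.82% ± 0.68, which is -0.636 points (p = 0.486, or 0.729 after Benjamini-Hochberg adjustment, by a two-sided exact permutation of the region labels). Nor did stable and variable tiles differ over the 8 libraries: the difference was -0.0132 points ± 0.139 (SD), positive in 4 of 8 libraries (exact sign-flip permutation p = 0.805; adjusted p = 0.805). Stable tiles were higher in all 4 hippocampus libraries, by 0.0726 to 0.129 points, and lower in all 4 hypothalamus libraries, with differences of -0.024 to -0.243 points. Against all tiles, most of which lay outside the middle CpG levels, stable tiles were higher in 8 of 8 libraries.

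**Figure D4:**
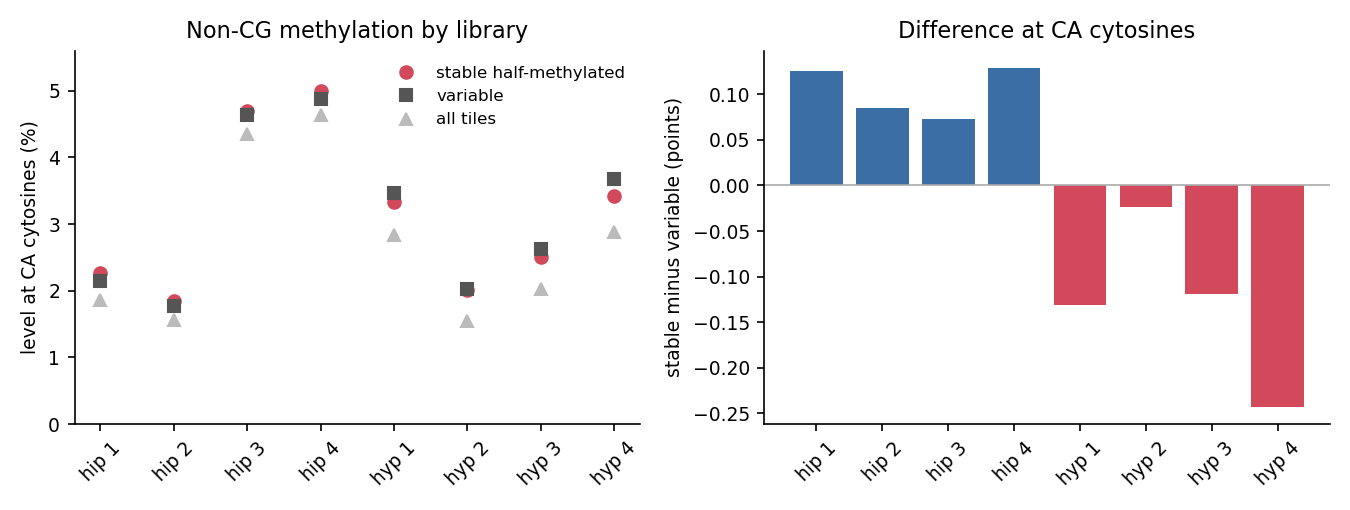
Left, level (%) at CHH cytosines followed by A in each library, for stable half-methylated tiles (red), variable tiles (dark grey) and all tiles (light grey). Right, stable minus variable tiles in points, positive in the 4 hippocampus libraries (blue) and negative in the 4 hypothalamus libraries (red).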

How the data were processed

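The authors deposited, for each of the 8 libraries, a fraction and the counts behind it (methylated calls and all calls) at each listed cytosine, with its base, context and dinucleotide. Per the labels' protocols, DNA was cut with MspI, fragments of 150 to 300 bases were selected, bisulfite-treated and sequenced. Bowtie and rn5 are named per the submitters' processing notes, with no role given; a methylation caller, trimming and duplicate handling are not stated there or in the protocols. Every deposited position had at least 10 calls, and calls of duplicate reads need not be independent molecules. Deposited fractions were the ratio of the counts and were not used.

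CpG counts of both strands were added, and 772179 dyads had 10 or more calls in every library. Tiles were summed in Python 3.11.15 with numpy 2.4.6, and permutation tests were exact, with p adjusted over 3 planned tests. The third, of the spread of dyads within tiles, is not reported as a test because the rule acts on sums of the same dyads. Dyads of mean level 5% to 95% (433557) were fitted with a quasi-binomial logistic model with tissue as the only term, with dispersion moderated by limma 3.58.1 in R 4.3.3 and not below 1, an F test and Benjamini-Hochberg adjustment. The fit was also run on simulated data with independent libraries and the same spread setting for all dyads. That run lacks pairs of libraries that look like the same animal, and nothing is read from it. Mixed tiles, boundaries and classes were described only. Pairing by replicate number was checked on deviations from the tissue means: correlations were 0.186, 0.048, 0.061 and 0.172 for numbers 1 to 4, so the 4 numbers together were not treated as pairs. Libraries numbered 1 and those numbered 4 share genotype-like classes. The tests between regions and the sign-flip tests over 8 libraries treat them as independent. A fit with a block for these 2 numbers was added after seeing the data.

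No genome of the files' build was used. Letters given by the listed cytosines were matched exactly to 33469 RefSeq promoter windows (GRCr8, 250 bases before to 50 after a start), of which 8519, for 7633 genes, matched at 1 place on the chromosome RefSeq gives; 98.2% of the 1-place matches lay there. Genes between matched starts up to 500000 bases apart follow RefSeq order, which can differ in rn5.

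The tiles named are the 5 with most dyads, the 3 with the smallest and the 3 with the largest range, those tied to a list of 72 imprinted genes, and the 5 called dyads of largest difference. The tiles of Lep, Tmem160, Sox30, Slc13a2, Gdf15, Plgrkt, Cercam, Plekhd1, Def6 and the protocadherin cluster were chosen after their values were seen. So were the promoters named at low level and the printed sequences. The members and lists were chosen with earlier results of these data known.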

Additional observations from a re-analysis of the deposited data

Results flagged for a closer look

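The difference between stable and variable tiles at CHH cytosines followed by A had opposite signs in the 2 regions. Hypothalamus minus hippocampus, it was -0.232 points (two-sided exact permutation test, p = 0.0286, the smallest that 4 against 4 libraries allow, unadjusted and looked at after the signs were seen). The pairs of libraries that look like the same animal enter this test as independent.

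In 5 of 98 groups of 4 libraries looked at (named tiles, named dyads and non-CG levels), 1 library stood apart from the other 3, and chance gives about 1 in 20. In hippocampus, a library stood at 64.78% in tile chr12:15403001, at 36.27% in chr14:84928001, at 37.55% in the first Gnas tile (chr3:178426001) and at 40.83% in the Tmem160 tile. In hypothalamus, a library stood at 47.43% in chr10:85232001.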

How the results depend on the processing

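The number of stable tiles, 1653, follows from the limits of the rule. It was 2846 with 3 or more dyads, 630 with 8 or more, 834 with 20 or more calls, 564 from 40% to 60%, 2884 from 30% to 70% and 1044 with a range of at most 15 points. Leaving out 1 library gave 1715 to 2454, the most without hypothalamus 4. A grid shifted by 500 bases gave 1646 and the unweighted mean of dyads 1736, of which 1379 were shared.

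The 497 called dyads were 137 at a difference of 20 points, 213 with limma on logit levels and 766 with the replicate block (2137 at an unadjusted p under 0.05). A block for the libraries numbered 1 and 4 only, chosen after seeing the data, gave 598. With a dispersion estimated per dyad, 0 were called (1296 at an unadjusted p under 0.05, beside 70120 of all 433557 tested dyads). Leaving out 1 library gave 292 (without hypothalamus 1) to 553. No shares over all tested dyads stand beside these counts of calls, and nothing is read from them. The replicate number marks no stated animal, although each library correlated best with its own number. The 5 named dyads were still called in 55 of 60 settings and were lost with the dispersion of each dyad alone. Their lowest library had 10 to 15 calls, so the setting of 20 or more calls covered none of them.

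The difference in dyad spread between stable and variable tiles, a description that the choice of tiles can shape, was 3.13 to 3.60 points when 1 library was left out. The CA difference between stable and variable tiles, which did not pass, changed sign to 0.00689 points with unweighted means, and ranged from -0.0335 to 0.0205 points when 1 library was left out, with 0.00508 without hypothalamus 1 and 0.0205 without hypothalamus 4. Against all other tiles it was 0.439 points (exact sign-flip permutation p = 0.00781). The regional CA difference ranged from -1.17 to -0.122 points when 1 library was left out, and its p with the replicate block was 0.5 (exact sign-flip permutation). With the level at cytosines followed by C subtracted, this regional difference was -0.246 points (two-sided exact permutation p = 0.571). The difference between stable and variable tiles was then -0.0142 points (exact sign-flip permutation p = 0.805). The cause of these changes was not tested.

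For the 41 stable tiles named by position or gene, the level moved by more than the SD of the libraries in 18 of 408 settings. In 7 of these it left the limits of the rule, which were the unweighted mean at chr8:37242001 (68.83%), Plgrkt (34.28%) and Cercam (34.34%) and 20 or more calls at chr10:85232001 (33.44%), Plgrkt (73.66%), Cercam (71.99%) and Plekhd1 (66.6%). Depth limits single dyads most in hypothalamus 3.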
